A study of Mus musculus with 24 samples.

Results

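Of the 3527 cDNA clones with a value on all 20 arrays of differentiating mouse embryonic stem (ES) cells, 80 (2.27%) had a female:male ratio near 1 in the first days of differentiation and a ratio well above 1 in the last. They were chosen on these values. With the median of all clones of each array set to 0, the mean log2 ratio over the 8 arrays of days 0, 2 and 4 (the early mean) had to lie between -0.25 and 0.25, and the mean over the 10 arrays of days 12, 15 and 21 (the late mean) had to be at least 0.5, which is a 1.41-fold higher level in the female cells. In all, 1985 clones met the condition on the early mean and 217 met the condition on the late mean. The log2 female:male ratio is called the M value here, and the 80 clones are called the late-rising clones after the way they were selected. Values on the 18 arrays of the rule describe the choice and were not tested. The values on the 2 arrays of day 7, the 2 of lymphocytes and the 2 of the inner cell mass (ICM) took no part in it, and only these were tested. A clone did need a value on both day 7 arrays, since all 20 ES cell arrays were required. The day 7 test was not fully separate from the choice, since it took the spread of each clone from all 20 ES cell arrays.

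Female mammals carry a pair of X chromosomes and males a single one, and the imbalance is corrected by silencing one X in each female cell. Undifferentiated female ES cells express most X-linked genes from both copies, and differentiation in culture is accompanied by the silencing. Withdrawal of leukaemia inhibitory factor (LIF), the cytokine that keeps ES cells undifferentiated, lets them form a mixture of embryonic cell types, so a ratio between cultures can move with any gene that differs between them and not with X-linked genes alone. A clone on the array used here is a cDNA from early embryos or embryonic tissues, and each clone reads the transcripts of the gene it came from. The clones are known in the values only by a name, which gives a plate, a row letter and a column. None of the 15247 names listed was found in the RefSeq gene table used here (0 matches), so genes, chromosomes, sequences and the lists of lineage, pluripotency and imprinted genes set down for the late-rising clones were not used.

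On each ES cell array female cells were compared with male cells of the same day of differentiation by co-hybridisation. The female line was PGK12.1, a hybrid with a PGK parent, and the male line was CCE/R, from an inbred strain. The labels give sex, day and dye of each array, and the lines were taken from the published numbers of replicates per day. Female and male cultures were taken through the same differentiation, in dishes they could not adhere to and in medium lacking LIF. There were 4 arrays at day 0 (replicates A to D), 2 at day 2 (E and F), 2 at day 4 (G and H), 2 at day 7 (I and J), 3 at day 12 (K to M), 2 at day 15 (N and O) and 5 at day 21 (P to T). Thymic lymphocytes of female and male 4-week-old Balb/c mice were on 2 arrays (U and V). Single ICMs, isolated by immunosurgery from cultured Balb/c blastocysts of either sex, were on 2 arrays (X and Y) after RNA amplification. ES cell replicates were described as biological, and so were the female ICM samples, whereas the male ICM samples were technical replicates. Each sex is a single line on every ES cell array, so that sex and cell line cannot be told apart, and fewer cells of a type and less RNA per cell cannot be told apart either.

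An array held values for 4985 to 13736 clones. Among the ES cell arrays, Cy3 labelled the female sample on 4 (A, N, O and P) and Cy5 on the remaining 16. That the deposited values run female over male is likely from the way the study defines its M value, but the values alone do not settle it. Within groups, the 25 pairs of arrays correlated over all clones at 0.076 to 0.801, with 0.076 to 0.677 for the 7 pairs of opposite dyes. The 15 pairs of a day 12 with a day 21 array correlated at -0.522 to 0.179, and 11 of these were below 0. The direction of female over male was kept, following the study's M value. Of the 7 pairs of opposite dyes, 0 correlated below 0, and their median was 0.475, against 0.543 for all 25 pairs within groups. If the values were instead Cy5 over Cy3 and had to be turned by the dyes, 14 clones would meet the rule, of which 5 are among the 80. On the day 21 arrays the median of the 3527 clones was -0.13 to -0.09 when that of all clones of the array was 0. Centring on the 3527 clones raised the number chosen to 102, with all 80 among them.

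The early means of the late-rising clones lay between -0.22 and 0.25 with a median of -0.01, and the late means between 0.50 and 1.71 with a median of 0.63. Most of the late means were close to the limit. There were 35 clones under 0.6, 19 at 0.75 or more and 4 at 1 or more. The 3 clones just inside the limit on the late mean had 0.501, 0.503 and 0.506, and the 3 just outside had 0.499, 0.496 and 0.494. For the early mean the clone nearest the upper limit from inside had 0.248 and the nearest outside had 0.259, and at the lower limit these values were -0.224 and -0.270. These values were used by the rule.

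The early arrays did not lie at 0 one by one. The median of the 80 clones was 0.31, 0.31, -0.27 and 0.15 on the day 0 replicates A to D in turn. It was 0.19 and -0.26 on E and F of day 2, and -0.34 and 0.12 on G and H of day 4. The medians were thus below 0 on 3 of the 8 early arrays and above 0 on 5. The number of the 80 clones above 0 was 59, 60, 25 and 52 on A to D, 62 and 14 on E and F, and 15 and 52 on G and H. Averaged by day, the medians were 0.14 at day 0 (range -0.42 to 0.51), -0.05 at day 2 (-0.62 to 0.68) and -0.15 at day 4 (-1.02 to 0.84). Only 8 of the 80 clones were above 0 on all 4 day 0 arrays (10%, against 19.4% of the 3527 clones) and 2 were below 0 on all 4. For a late-rising clone the SD between day 0 arrays was typically 0.42, against 0.28 for all clones (medians). The ratio near 1 in these clones was thus an average of early arrays on either side of 0.

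Late in differentiation the medians were above 0 on all 10 arrays. They were 0.13, 0.52 and 0.30 on replicates K, L and M of day 12, 0.96 and 0.34 on N and O of day 15, and 1.25, 1.21, 0.43, 0.86 and 0.81 on P to T of day 21. As female over male, the highest was on P and the lowest on K. If the values are Cy5 over Cy3, the medians on the Cy3 arrays N, O and P become -0.96, -0.34 and -1.25, P is the lowest and Q the highest. The number of late-rising clones at 0.5 or more was 20, 41 and 25 on the day 12 arrays, 56 and 29 on the day 15 arrays, and 73, 66, 34, 61 and 53 on the day 21 arrays. Replicates N and O of day 15 and R of day 21 show that arrays of the same day differed. Of the 80 clones, 18 were above 0 on all 10 late arrays, 45 on at least 9 and 65 on at least 8. The clone above 0 on the fewest late arrays was above 0 on 5. Of the 3527 clones, 85 were above 0 on all 10.

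**Figure D1:**
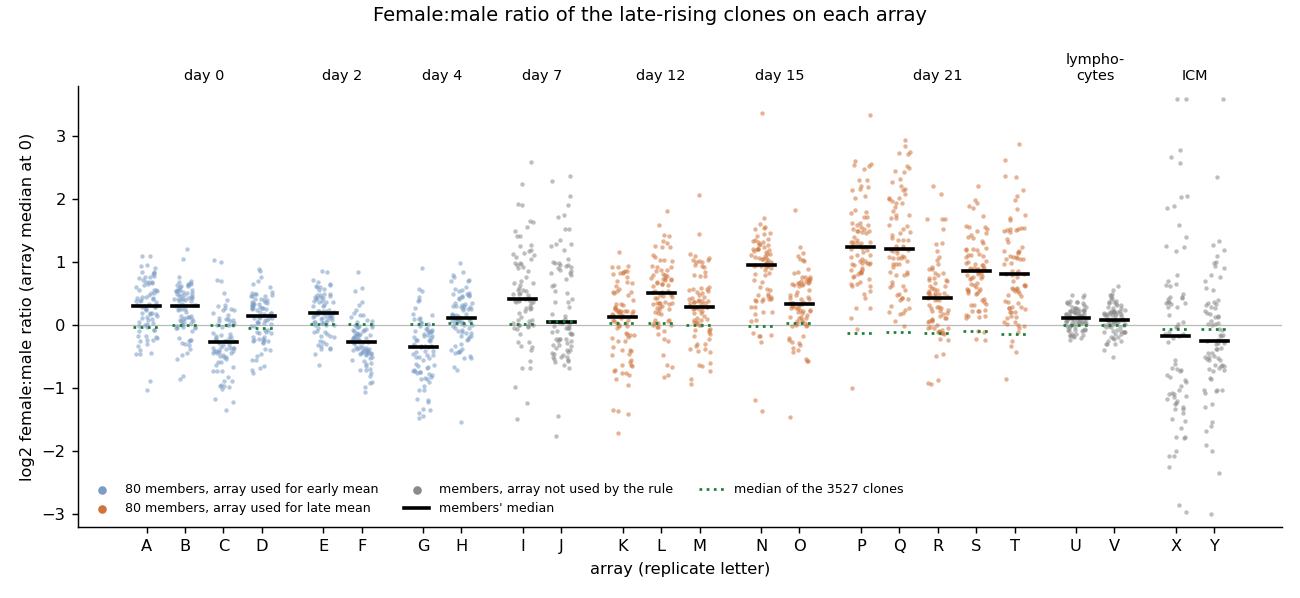
M values (log2 female:male, array median at 0) of the late-rising clones on each of the 24 arrays, with each clone a point, the median of the late-rising clones as a black line and that of the 3527 clones as a dotted green line; 4 values lie outside the drawn range and are placed at its edge. The black lines scatter on both sides of 0 on the early arrays, lie at 0.13 to 1.25 on the 10 late arrays, and are -0.17 and -0.25 on the ICM arrays.

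Taken apart, the 3 late days were not alike. At day 12 the median of the clones' day means was 0.30 (range -0.75 to 1.21), and 28 of the 80 clones (35%) averaged 0.5 or more, against 10.2% of the 3527 clones. At day 15 the median was 0.65 (-1.41 to 2.59), a 1.57-fold difference, and 51 clones (63.7%, against 13.3%) averaged 0.5 or more. At day 21 the median was 0.95 (0.08 to 1.81), a 1.94-fold difference, and 70 clones (87.5%, against 11.3%) averaged 0.5 or more. Both day 15 arrays and 1 of the 5 day 21 arrays had the female sample in Cy3. With these turned, the median of the same 80 clones was -0.65 at day 15 and 0.43 at day 21. At day 15, 1 clone then averaged 0.5 or more (1.25%, against 11.9%), and at day 21, 38 clones did (47.5%, against 7.09%). Turning only changes the sign of an array, and the 80 clones were chosen on the unturned values. The reversal at day 15 and the fall at day 21 were thus set by the choice. The day 21 mean was above 0 in all 80 clones, whereas 22 clones were below 0 at day 12 and 6 at day 15. Day 21 supplied 5 of the 10 late arrays and so weighed most in the choice. With each day given equal weight 73 clones were chosen, 52 of them among the 80.

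Only 12 of the 80 clones averaged 0.5 or more on each of the 3 late days. As female over male, the most frequent pattern was 0.5 or more at days 15 and 21 but not at day 12, in 31 clones, and with the Cy3 arrays turned this was the pattern of 1 clone. A mean of 0.5 or more was reached at day 21 alone in 21 clones, at days 12 and 15 in 8, at days 12 and 21 in 6 and at day 12 alone in 2. The means increased in the order of the days, day 12 lowest and day 21 highest, in 39 clones. Day 12 was the highest of the 3 days in 9 clones, day 15 in 20 and day 21 in 51. These orders hold only for ratios of female over male. With the Cy3 arrays turned, an alternative added after seeing the data, day 12 was the highest in 32 of the 80 clones, day 15 in 1 and day 21 in 47. The clones were chosen on the unturned values, so the shift away from day 15 was set by the choice. The choice of these clones thus took in more than a single course.

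Clones low at day 12 were high at day 21. The 22 clones with a day 12 mean below 0 had a median of 1.23 at day 21 and 0.57 at day 15. The 30 clones with a day 12 mean of 0 to under 0.5 had medians of 0.88 at day 21 and 0.69 at day 15, and the 28 clones at 0.5 or more had 0.71 and 0.73. Over the 80 clones the correlation of the day 12 with the day 21 mean was r = -0.56. The floor on the late mean by itself favours such a relation, since a clone low on one day must be high on another to be chosen. Over the 3527 clones, which no floor restricts, r was 0.10 for these day means. Single day 12 and day 21 arrays, over all clones and also without a floor, correlated at a median of -0.155. Of those 15 pairs, 11 were below 0. The relation without the choice thus differed between these measures. The correlation of the day 12 and day 15 means was 0.18 over the 80 clones (0.43 over the 3527), and that of the day 15 and day 21 means was -0.16 (0.36). The points of these correlations share their arrays.

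**Figure D2:**
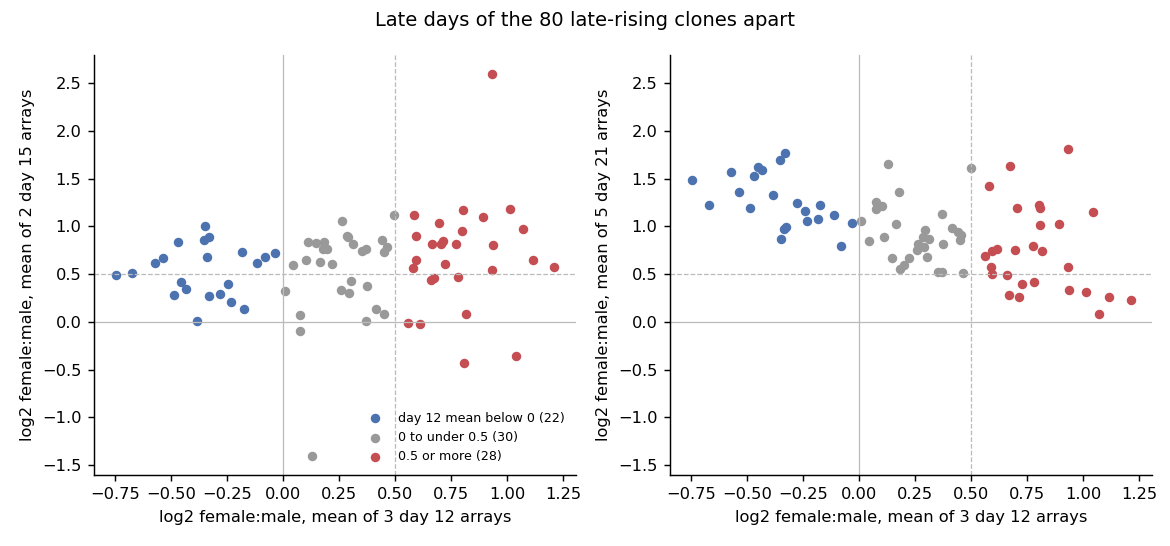
Day means (log2 female:male) of the 80 late-rising clones, with the mean of the 3 day 12 arrays on the x axis and that of the 2 day 15 arrays (left) or the 5 day 21 arrays (right) on the y axis; each point is a clone, coloured by its day 12 mean, and dashed lines mark 0.5. All 80 clones lie above 0 at day 21, and the 22 with a day 12 mean below 0 have a median of 1.23 there, against 0.71 for the 28 at 0.5 or more.

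As female over male, the clone with the highest late mean was H3068a11 (1.71). With the Cy3 arrays turned, its late mean was 0.24 (rank 27 of the 80 clones), its day 15 mean -2.59 and its day 21 mean 0.95. Its M values were 0.14, 0.13, -0.16 and 0.34 at day 0, 0.44 and -0.76 at day 2, and -0.82 and 0.16 at day 4. At day 12 they were 0.93, 1.08 and 0.79, at day 15 they were 3.36 and 1.83, and at day 21 they were 2.16, 1.95, 0.71, 1.89 and 2.37. None of the 10 late arrays overlapped with the early arrays, the lowest late value being 0.71 (replicate R) and the highest early value 0.44. The clone was chosen and named on these same arrays, which favours such a gap. Gaps of this kind were not counted over all clones. The mean was 0.93 ± 0.15 at day 12 (SD, n = 3), 2.59 ± 1.09 at day 15 (n = 2) and 1.81 ± 0.65 at day 21 (n = 5), which is 1.91-fold, 6.04-fold and 3.52-fold. The difference between days 15 and 21 was within the spread of these arrays.

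H3030d06, with the next highest late mean (1.18, or 0.45 with the Cy3 arrays turned), was above 0 on every early array as female over male. Its M values were 0.18, 0.39, 0.04 and 0.35 at day 0, 0.44 and 0.07 at day 2, and 0.05 and 0.18 at day 4. They were 0.16, 0.81 and 0.52 at day 12, 1.42 and 0.83 at day 15, and 1.40, 2.08, 1.69, 1.73 and 1.15 at day 21. The lowest day 12 value, 0.16 on replicate K, fell among the early values, and the 5 day 21 values and both day 15 values lay above all of them. Here too the choice favours such a gap. The day 21 mean of 1.61 ± 0.35 (SD, n = 5) is 3.06-fold, and it was 0.24 ± 0.16 at day 0 (n = 4).

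Because the late arrays had chosen the clones, the choice was repeated with each array left out in turn, and the left-out array was then read. This is a description, since the remaining arrays include others of the same day. On the 10 late arrays the clones chosen without the array (57 to 109) had medians of -0.12, 0.35 and 0.26 on K, L and M of day 12, 0.83 and 0.24 on N and O of day 15, and 1.19, 0.98, 0.15, 0.63 and 0.56 on P to T of day 21. These were above the median of the 3527 clones on 9 of the 10 arrays, the exception being K. The share at 0.5 or more was 16.5% on K and up to 80.7% on P, against 13.2% to 21.3% of the 3527 clones, and was the higher share on all 10 arrays. The margin was smallest on K, with 16.5% against 14.2%. With the values turned by the dyes, where 10 to 31 clones were chosen, the share was the higher on 8 of the 10 arrays, and on L and P it was 4.35% and 6.45%, against 15.5% and 29.5%. On the 8 early arrays, the clones chosen without the array (74 to 81) had medians of -0.44 to 0.29. Their share at 0.5 or more was 2.6% to 32.9%, against 10.7% to 17.3% of the 3527 clones. It was the higher share on 4 of these 8 arrays. On A and B of day 0 it was 32.9% and 32.1%, above the 16.5%, 23.9%, 28.9% and 28.6% on the late arrays K, M, O and R. A higher share on a left-out array was thus not confined to the late days.

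**Figure D3:**
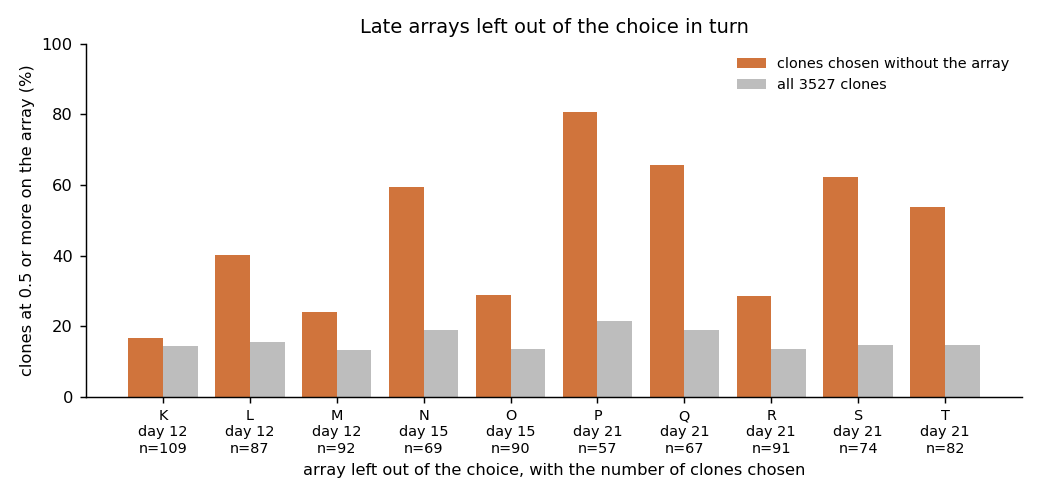
Percentage of clones with an M value of 0.5 or more on each of the 10 late arrays, for clones chosen by the rule without that array (left bar, with the number chosen as n) and for all 3527 clones (right bar). As female over male, the left bar is the higher on all 10 arrays, by least on replicate K of day 12 (16.5% against 14.2%) and with its highest value on P of day 21 (80.7%).

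Day 7 lies between the early and the late arrays, and its values were not used to choose the clones, though a value on both arrays was required. There the late-rising clones were spread widely, from -1.62 to 1.97, with a median of 0.37 (the 3527 clones: 0.02). Their median was 0.42 on replicate I and 0.06 on replicate J. By limma, with Benjamini-Hochberg adjustment over the 7122 clones tested, 11 of the 80 clones (13.8%) were higher in female cells and 1 (1.25%) was lower at an adjusted p under 0.05. Of all clones tested, 7.06% were called higher and 2.74% lower. Among the 3527 clones from which the late-rising clones were chosen, 8.56% were called higher and 3.71% lower, and among the other 1905 clones within the early limits, 6.61% and 2.99%. At an unadjusted p under 0.05 there were 25 of the 80 clones higher and 2 lower, against 15.4% and 9.44% of all clones tested.

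The 11 clones called higher had day 7 ratios of 0.93 to 1.97, which is 1.90-fold to 3.92-fold, with SE of 0.22 to 0.46 and limma adjusted p of 0.00113 to 0.0295. All 11 were above 0 on both day 7 arrays, and the lowest single value was 0.68. Their later course was uneven, with a median of 0.50 at day 12, 0.14 at day 15 and 0.99 at day 21. In the 68 clones that did not pass the test at day 7, these medians were 0.27, 0.68 and 0.92. Both day 15 arrays had the female sample in Cy3, and all arrays of days 7 and 12 had it in Cy5. Dye and day therefore cannot be told apart in the step to day 15. Of the 80 clones, 38 were above 0 on both day 7 arrays (47.5%, against 37.3% of the 3527), 13 were below 0 on both and 29 had opposite signs. The 34 clones averaging 0.5 or more at day 7 were 42.5% of the 80, against 19.9% of the 3527. The M values of I and J correlated at r = 0.56 over the 80 clones.

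The day 7 calls, of all clones as well as of the late-rising ones, fell in number when I or J was left out. They rose without P of day 21, where 16 of the 80 clones were called higher, against 8.9% of all clones. Without replicate J 2 of the 80 clones were called higher and 0 lower, against 1.34% and 0.354% of all clones, and without replicate I 7 were called higher and 1 lower, against 3.64% and 1.68%. Among clones on all 20 ES cell arrays alone, 18 were called higher and 1 lower, against 11.1% and 5.73% of those clones, and with the values turned by the dyes 2 were called higher, against 3.15% of all clones. That turning changed no day 7 value, since both arrays had the female sample in Cy5, but widened the spread shared by all days. In the fits without I or J the lone day 7 array was assumed to vary like the arrays of other days.

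H3030d06 was among the clones called higher at day 7, with 1.11 and 1.53 on I and J, a mean of 1.32 (SE 0.226, limma adjusted p = 0.00157), or 2.49-fold. H3068a11, the clone with the highest late mean, had 0.41 and -0.21 there and did not pass the test (mean 0.10, SE 0.386, limma adjusted p = 0.918). The pair with the 2 highest late means thus differed at day 7, with values that did not overlap.

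The single clone called lower at day 7 was H3142g06. Its values were -1.48 and -1.76, a mean of -1.62 (SE 0.316, limma adjusted p = 0.00374), or 0.324-fold. On the other days it had 0.20, 0.15, 1.04 and 0.50 at day 0, -0.38 and -0.19 at day 2, 0.41 and 0.25 at day 4, -0.16, -0.67 and 0.30 at day 12, 0.82 and -0.54 at day 15, and 0.97, 1.18, 1.18, 1.98 and 0.82 at day 21. The 2 day 7 values were below every other ES cell value of this clone, and the 5 day 21 values were above those of days 12, 2 and 4. Naming the clone as the lowest at day 7 favours the first, and the rule favours the second. The next lowest clone at day 7, H3021e10, had -0.98 and -1.44 (mean -1.21, SE 0.463, limma adjusted p = 0.111) and did not pass the test. It had -0.20, -0.83 and -0.38 at day 12, 1.62 and 0.06 at day 15, and 1.62, 2.75, -0.11, 1.86 and 1.54 at day 21, where only the value on replicate R was below 0. The late mean of 0.79 in H3021e10 came from days 15 and 21, all 3 day 12 values being below 0.

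**Figure D4:**
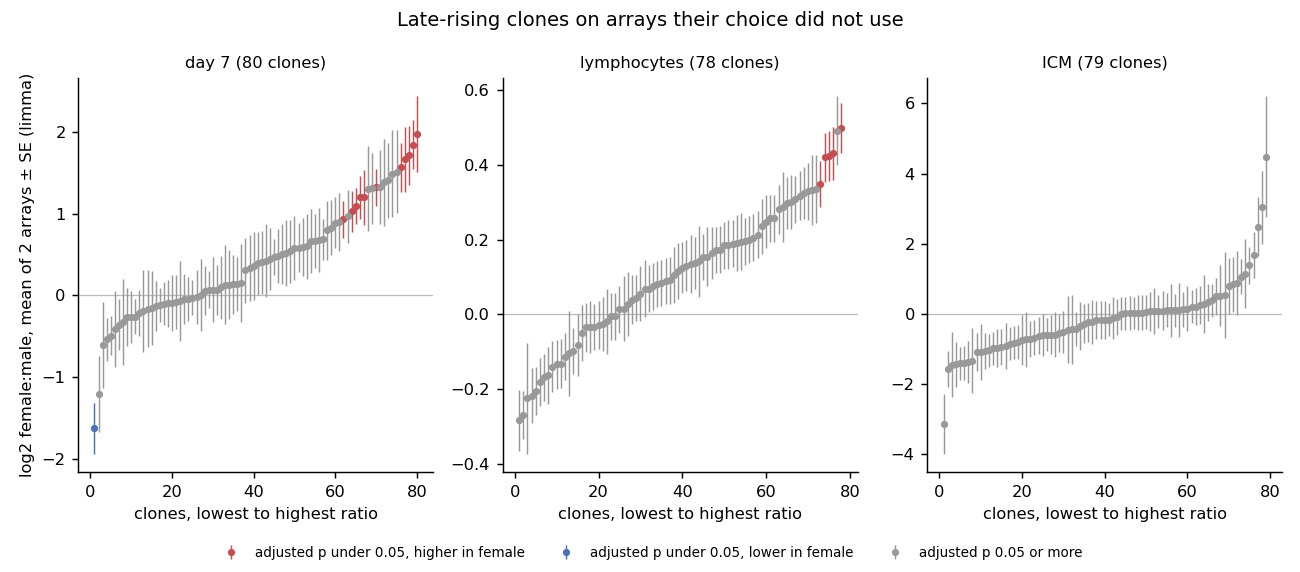
M values (log2 female:male) of the late-rising clones on arrays whose values did not choose them, as the mean of 2 arrays with its SE from limma. Clones are sorted from low to high within each panel (day 7, lymphocytes and ICM, with y axes that differ). Coloured points have an adjusted p under 0.05, which was the case for 11 clones higher and 1 lower at day 7, 5 higher in lymphocytes and none in the ICM.

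Lymphocytes gave the late-rising clones a narrow range of ratios, -0.28 to 0.50 with a median of 0.12 (1.09-fold). The 3527 clones had a median near 0 (0.004). The median of the late-rising clones was 0.11 on replicate U and 0.09 on V. Of 78 clones with a value on both arrays, 5 (6.41%) were higher in female lymphocytes and 0 were lower by limma (adjusted p under 0.05 over 7781 clones), against 5.27% higher and 5.68% lower of all clones tested. By the same calls, 4.07% were higher and 4.1% lower of the 3362 clones tested among the 3527. Among the other 1859 tested clones within the early limits, 3.39% were higher and 4.3% lower. The share of late-rising clones called higher was thus near that of all clones tested. It was above the shares in the sets they were chosen from, but rested on 5 clones. The calls also depended on the clones tested. When only clones on all 20 ES cell arrays were tested, 33 of the 78 were called higher and 6 lower, against 21.2% and 20.3% of all those clones. The 5 clones had ratios of 0.35 to 0.50 (1.27-fold to 1.41-fold, SE 0.0617 to 0.0714, adjusted p 0.0344 to 0.0454). At an unadjusted p under 0.05, 28 were higher and 5 lower, against 18% and 18.7% of all clones tested. Above 0 on both arrays were 47 of the 78 clones (60.3%, against 40.9% of the clones among the 3527), and 13 were below 0 on both. No clone averaged 0.5 or more, and U and V correlated at r = 0.72 over the clones.

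Of the clones highest late in ES cell differentiation, H3068a11 had 0.18 and 0.22 in lymphocytes (limma adjusted p = 0.103, and 0.0134 among clones on all 20 ES cell arrays alone) and H3030d06 had -0.18 and -0.08 (limma adjusted p = 0.222, and 0.0814 among those clones). The call of H3068a11 thus depended on which clones were tested.

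In the ICM the ratios of the late-rising clones ran from -3.15 to 4.48, with a median of -0.16, against -0.10 for the 3527 clones. The medians were -0.17 on replicate X and -0.25 on Y. Of the 79 clones with a value on both arrays, limma called 0 higher and 0 lower. Of all 11515 clones tested, 0% were called higher and 0% lower. At an unadjusted p under 0.05, 1 of the 79 clones was higher and 3 were lower, against 5.95% and 7.53% of all clones. The SE of a late-rising clone was typically 0.544 in the ICM, against 0.359 at day 7 and 0.0669 in lymphocytes (medians). A difference like the day 21 median of 0.95 was therefore not detectable in the ICM with these 2 arrays. Only 9 clones (11.4%, against 27.2% of the clones among the 3527) were above 0 on both arrays, 22 were below 0 on both, and X and Y correlated at r = 0.15 over the clones. H3030d06 was low on both arrays, with -1.29 and -1.54 (mean -1.42, SE 0.466, limma adjusted p = 0.359).

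The names place the clones on plates, and the plate rows held unequal shares of the late-rising clones, which were compared without a test. Row d held 20 of the 80 clones (25%), against 11.5% of the 3527, so that 4.93% of the clones of row d were late-rising. In the other rows 1.1% to 2.69% were, the counts being 12 in a, 7 in b, 7 in c, 6 in e, 11 in f, 12 in g and 5 in h. The median late mean of all clones of a row differed little between rows, from -0.09 in row c to -0.01 in row h, with -0.02 in row d. Plates 1 to 40 held 52 of the 80 clones (65%), against 49.3% of the 3527. The 80 clones came from 51 of the 159 plates, and the plate with the most held 6 of them among its 71 clones. Subtraction of each row's median on each array, done after these counts were seen, left 77 clones, of which 71 were among the 80, and subtraction of each plate's median left 79, of which 60 were. Row and plate were not linked to positions on the slide in the sources used here, and their part in the result was not tested beyond this.

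**Figure D5:**
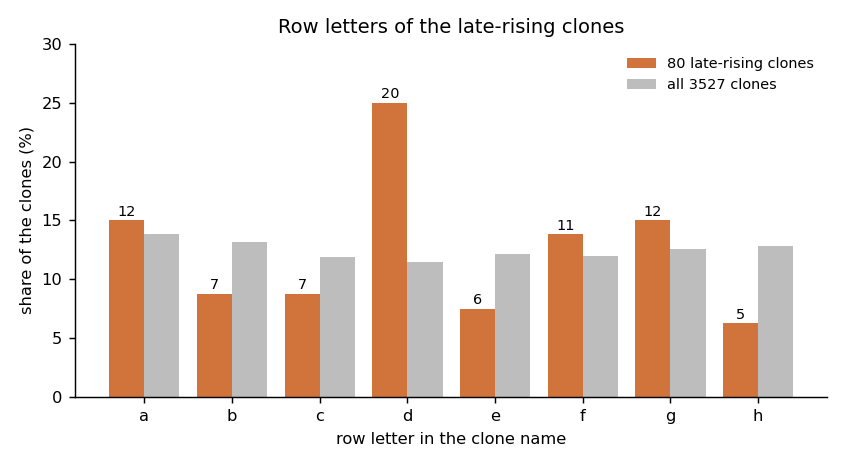
Percentage of the 80 late-rising clones (left bars, with their number above) and of all 3527 clones (right bars) by the row letter of the clone name. Row d held 20 late-rising clones (25%), against 11.5% of all clones.

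Some of the 80 clones gave nearly the same profile. Among the 3160 pairs, the correlation over the 20 ES cell arrays had a median of 0.45 and ran from -0.57 to 0.99, and 29 pairs (0.918%), made up of 31 clones, were above 0.9, against 0.0394% of the pairs of the 3527 clones. The rule set limits on the early and the late mean, which cover 18 of these 20 arrays, though not on any single array. Such correlations are therefore in part set by the choice. The pair with the highest correlation (r = 0.992) lay in neighbouring wells of a plate, had late means of 0.648 and 0.656, and differed by at most 0.228 on an array. There was only 1 other pair in neighbouring wells. Whether such pairs come from the same gene was not tested.

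The values differed by the dye of the female sample and, on the early arrays, by the mention of removal of spots by hand in the labels. On the 3 late arrays with the female sample in Cy3 (N, O and P), the median over clones of the mean ratio was 0.81, against 0.57 on the 7 late arrays with it in Cy5. Those 3 hold both day 15 arrays and the 7 hold all 3 day 12 arrays, so dye and day cannot be told apart there. Within day 21 the median was 1.25 on the Cy3 array and 0.90 on the 4 Cy5 arrays. On the 3 early arrays whose labels mention the removal (D, F and G) the median was -0.21, with 18 clones above 0, against 0.12 with 57 above 0 on the other 5. Single early arrays went the other way, with 0.15 on D and -0.27 on C, whose label does not mention the removal. On the 7 late arrays whose labels mention it the median was 0.68, and it was 0.62 on the other 3. The early arrays also differed in the number of clones with a value. The median was below 0 on the 3 early arrays with the most values, C, F and G (10624, 9593 and 9212 clones). It was above 0 on the other 5, which held 5660 to 8640. The part of the dyes, of the removal and of the number of values was not tested.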

How the data were processed

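Female and male mouse cells were compared on 24 two-colour cDNA arrays. The deposited values are log2 ratios, normalised by the authors with Gepas after scanning with the dyes balanced, removal of abnormal spots by hand and extraction with GenePix 6.0. Not given in the sources used here are the Gepas method, the background correction, the joining of duplicate spots and the handling of missing values. Each array was centred on the median of all its clones. The late-rising clones, the gene lists and the tests were chosen with earlier results of these data known. The 7122 clones measured at least once on each day were fitted by a model with a mean per day over the 20 ES cell arrays (limma 3.58.1, R 4.3.3, Benjamini-Hochberg adjustment, adjusted p under 0.05). Lymphocyte (7781 clones) and ICM (11515 clones) arrays were fitted separately, over clones on both arrays. Simulated data were used to test the procedure. Without spot intensities, only the spread between arrays gives the precision of a value, and each array held values for 4985 to 13736 clones. Clones named are the 2 with the highest late mean and the 2 lowest at day 7. Alternatives were the values as deposited, other centring, scaling, dyes, clone filters, array weights, robust moderation (statmod 1.5.0), day weights and each array left out.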

Additional observations from a re-analysis of the deposited data

Results flagged for a closer look

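By Dixon's criterion no array was an outlier among those of day 0 or day 21 in the median of the late-rising clones, in its number of values or in the 4 clones named (0 of 12 comparisons). Groups with opposite signs on every array were looked for in 105 pairs of groups, for the median and the 4 clones named. Each pair had day 7, lymphocytes or ICM on at least one side, and 26 were found. H3030d06 gave more of them than the median or any other clone named. Such pairs were not counted over all clones, so the number has no background to be read against. None of these differences was tested. The median of the late-rising clones was below 0 on both ICM arrays and above 0 on every array of days 7, 12, 15 and 21 and of lymphocytes. The ICM mean of these medians (-0.21) differed by -0.31 from that of lymphocytes, by -0.45 from day 7, by -0.53 from day 12, by -0.86 from day 15 and by -1.12 from day 21. The late days were used to choose the clones, so their sign here was set by the choice.

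H3030d06 was below 0 on both lymphocyte and both ICM arrays and above 0 on all 20 ES cell arrays. Lymphocytes minus ES cells gave -0.37, -0.39, -0.25, -1.45, -0.63, -1.26 and -1.75 for days 0, 2, 4, 7, 12, 15 and 21 in this order. ICM minus ES cells gave -1.66, -1.67, -1.53, -2.73, -1.91, -2.54 and -3.03 in the same order of days. H3030d06 was named for its high late mean, so its sign at days 12, 15 and 21 was in part set by the choice.

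H3142g06 at day 7 differed by -2.10 from day 0 and by -1.95 from day 4, and its day 21 mean was 2.85 above that of day 7. In lymphocytes H3142g06 was 0.62 above day 2 and 1.96 above day 7. H3021e10 at day 15 was 2.05 above day 7, and its lymphocyte mean differed by -1.003 from that of day 15. Both clones were named as the 2 lowest of the late-rising clones at day 7, so their day 7 signs were set by that choice. Days 15 and 21 had taken part in choosing them as late-rising clones.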

How the results depend on the processing

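The 80 clones became 14 with the values turned by the dyes, 12 when each late day had to reach 0.5, and 157 without the day 12 arrays in the rule (added after seeing the data), with 5, 12 and 70 of them among the 80. Also added, the rule without the day 21 arrays chose 114 (34 of the 80) and the rule with the day 12 sign turned 78 (42 of the 80). Leaving out each array gave 57 (without P) to 109 (without K) clones. Rules restricted to arrays with or without the removal by hand in their labels, also added, chose 86 and 120 clones, and 42 and 38 of the 80. The median on a left-out late array was 0.46, and with the values turned by the dyes it reversed to -0.16. Turning by the dyes also took the median of the 80 clones to -0.65 at day 15 and 0.43 at day 21, against 0.65 and 0.95, and left that of day 12 as it was. These changes were set in advance, since turning changes only signs and the clones were chosen on the unturned values.

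At day 7, where 11 clones were called higher, the count was 18 among clones on all 20 ES cell arrays, 18 with the dye as a covariate, 19 with the day 7 arrays alone and 2 with the values turned by the dyes, against 11.1%, 7.12%, 7.3% and 3.15% of all clones called higher; leaving out each array gave 2 (without J) to 16 (without P). Calls over all clones numbered 698, but 270 with the values turned by the dyes, 433 with a common spread, 120 without J and 364 without I. In lymphocytes 5 clones were called higher, and 33 when tested among clones on all 20 ES cell arrays, where 21.2% of all clones were called higher (1395 called in all, against 852). The ICM gave 0 calls under each alternative run. The median of the 80 clones was 0.0585 to 0.4244 at day 7, 0.0900 to 0.1137 in lymphocytes and -0.25 to -0.17 in the ICM with an array left out, and -0.10 in the ICM centred on the 3527 clones. H3030d06 and H3142g06 lost their day 7 calls without J (M values 1.11 and -1.48, adjusted p = 0.0978 and 0.128) and with the values turned by the dyes (M values the same, SE 0.538 and 0.488, adjusted p = 0.187 and 0.0731), and kept them under 28 other settings each. H3068a11 at day 7 reversed to -0.21 without I and was 0.41 without J. H3021e10 passed the test with the day 7 arrays alone (0.0048) and without R (0.032). The causes were not tested. No paired analysis was possible because the arrays share no replicate numbers between groups.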
